A study of Arabidopsis thaliana with 6 samples.

Results

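PORB, GSA1 and LIL3:1 encode proteins of chlorophyll synthesis, and 3 probe sets on the array, 1 for each gene, were paired with them by the platform's gene symbols, out of 3602 genes that could be named from a probe set with a single gene. They stand for 1 early and 2 late steps of the pathway and were selected on their signals on these same arrays: PORB for opposite differences from the L arrays in CL and CV, GSA1 for its difference between CV and CL, and LIL3:1 as a further late step whose signals were known as well. All their values below are therefore a description, and no test was made of them. All 3 probe sets passed the filter on dim signals.

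Chlorophyll is made in the plastid from glutamate. The first committed product is 5-aminolevulinate, which is assembled stepwise into porphyrins; insertion of magnesium then separates the chlorophyll branch from the haem branch. In flowering plants the reduction of protochlorophyllide to chlorophyllide needs light, and afterwards a phytyl tail is attached. Because free intermediates of the pathway are phototoxic, leaves adjust the supply of 5-aminolevulinate and the later steps to light and to the demand of the antenna proteins that bind the finished pigment.

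Transcript levels were measured in unshaded rosette leaves of Arabidopsis thaliana, ecotype Ws-2 without genetic modification, at growth stage 3.90, on 6 single-channel Affymetrix arrays. The study concerned how leaves acclimate to the intensity of light. Each array has a code: 2 starts (CL and CV) are crossed with 3 endings (L, M and H), so that the groups are CLL, CLM, CLH, CVL, CVM and CVH with 1 array each. The labels leave the letters unexplained, so the arrays are named here by code and not by a light level. All growth records give 60% humidity and a normal atmosphere; those of the 2 L arrays add compost, a dark period of 16 hours and a temperature of 15 °C during it. The number of plants pooled for an array is not stated in these labels. There was no replicate of any code, and no statement that the plants of different arrays were grown separately. The spread behind any p-value is therefore that between single arrays and may be technical. It also holds any different action of the endings in CL and CV, which cannot be told apart from error.

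Median signals of the arrays lay between 20.0 and 26.2, and 5773 probe sets were kept for the comparisons. The number of arrays limits the precision of every value. Of 20 green leaf markers 2 were on the array under a name, RCA (Rubisco activase) and LHCB4.1 (a minor antenna protein of photosystem II), and both were bright on every array, with signals of 7730.6 to 10819.5 and 8904.9 to 12240.5. None of 21 guard cell, vascular, flower and root markers was on the array under a name, so the share of other tissues was not measured. In RNA from whole leaves, fewer cells of a type and less RNA per cell cannot be told apart.

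GSA1 (AT5G63570) encodes glutamate-1-semialdehyde aminomutase, the enzyme that forms 5-aminolevulinate. On the CL arrays its signal was 67.4 (L), 75.5 (M) and 55.8 (H). On the CV arrays it was 162.8 (L), 162.3 (M) and 109.7 (H). All 3 CV arrays were above all 3 CL arrays, and the lowest CV value was 1.45 times the highest CL value. How many of all probe sets had their starts separated in this way was not counted. The share cannot exceed the 13.0% that were higher in CV at all 3 endings by any amount. The CV signal was 2.42 times the CL signal at L, 2.15 times at M and 1.97 times at H. On the scale log2(signal + 3.9), used for all differences below, these are 1.23, 1.07 and 0.93. A difference of at least 1 in this direction was found for 4.07% of probe sets at L, 6.57% at M and 7.12% at H. Of all probe sets kept, 24 (0.416%) were higher in CV at all 3 endings with a smallest difference at least as large as that of GSA1, GSA1 included.

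LIL3:1 (AT4G17600) encodes a light-harvesting-like protein that is known to hold geranylgeranyl reductase, the enzyme of the phytyl tail, at the thylakoid membrane. Its signal was 724.5 (L), 776.7 (M) and 501.1 (H) for CL, and 948.4 (L), 946.3 (M) and 806.2 (H) for CV. As for GSA1, every CV array lay above every CL array, but the margin between CVH and CLM was 0.05 on the log2 scale against 0.52 for GSA1, and after quantile normalization it was -0.024, so that the starts overlapped. CV minus CL was 0.39 (L), 0.28 (M) and 0.68 (H). With each array centred on its median the value at M was 0.52, and after quantile normalization it was 0.075. Of all probe sets kept, 4.94% were higher in CV at all 3 endings with a smallest difference of at least 0.28, and 13.0% were higher in CV at all 3 endings by any amount.

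PORB (AT4G27440) encodes a protochlorophyllide oxidoreductase, the light-requiring enzyme of chlorophyllide formation, in an isoform used by green leaves. On the CL arrays its signal was 306.6 (L), 1470.0 (M) and 925.7 (H). For CV the order was turned, with 1475.6 (L), 429.3 (M) and 343.9 (H). The 6 arrays thus fell into 3 with signals of at most 429.3 (CLL, CVH and CVM) and 3 with signals of at least 925.7 (CLH, CLM and CVL), and each start had arrays in both sets. The highest signal was 4.81 times the lowest, and 94.8% of all probe sets kept had a smaller range over the arrays. For GSA1 the corresponding ratio was 2.92, with 77.0% of probe sets below its range, and for LIL3:1 it was 1.89, with 44.4%.

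**Figure D1:**
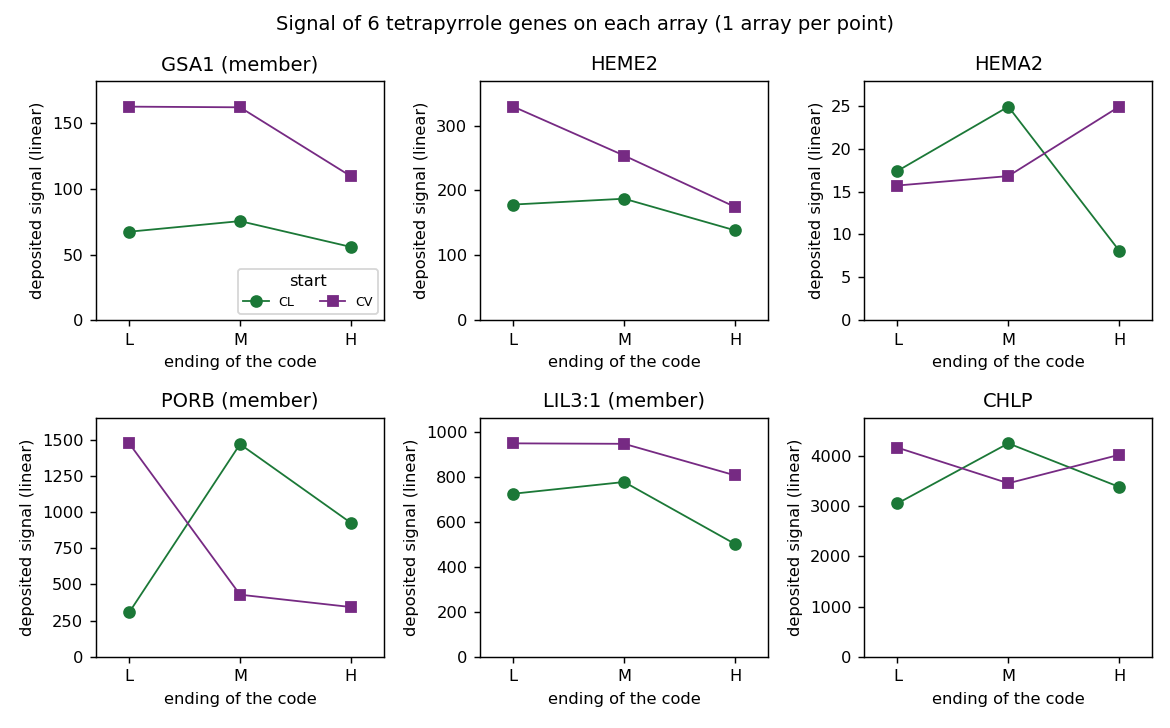
Deposited signal (vertical axis, linear, from 0) of GSA1, HEME2, HEMA2, PORB, LIL3:1 and CHLP on each array, by the ending of the code (horizontal axis) and by start (circles CL, squares CV; lines only join arrays of a start). GSA1, LIL3:1 and HEME2 were higher in CV at every ending, whereas PORB was higher in CV at L (1475.6 against 306.6) and lower at M (429.3 against 1470.0) and H (343.9 against 925.7).

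With 1 array per code a level has no spread of its own. As a yardstick, the residual SD of a model with start and ending added together had a median of 0.32 over all probe sets kept. Neighbouring levels closer than this are not put in order here. The yardstick is the spread of a single array around that model, and it also holds any different action of the endings in CL and CV. A difference between arrays varies more, so the orders given are descriptions. PORB itself had a residual SD of 1.57, which includes any different action of the endings in CL and CV. For PORB the yardstick leaves CVL and CLM level at the top, then CLH, then CVM and CVH level, and CVH and CLL level at the bottom. CVM and CLL differed by more. For GSA1, CVL and CVM were level and above CVH, which was above CLM, while the 3 CL arrays could be told apart only between CLM and CLH. For LIL3:1 only CLH stood apart from its nearest neighbour, by 0.53 from CLL.

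The differences of M and H from L within a start ask whether the endings act alike in CL and CV. For PORB they ran in opposite directions. M minus L was 2.25 in CL and -1.77 in CV, and H minus L was 1.58 in CL and -2.09 in CV. The L array of a start is shared by both of its differences, so these are not independent. At M, 63 probe sets (1.09%) were higher than at L in CL and lower in CV by at least 1 each, and at H 42 probe sets (0.728%).

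Differences as large as those of PORB in both starts were seen for 4 probe sets at M (0.0693%) and for 6 at H (0.104%), PORB included. Beside PORB these were, at M, AT3G15450, the dehydrin gene LTI30 and 1 unnamed probe set, and, at H, AT3G15450 and 4 unnamed probe sets, named here after their values were seen. For LTI30 the CL signals were 77.3 (L), 545.1 (M) and 677.8 (H), and the CV signals 239.4 (L), 57.3 (M) and 100.7 (H). For AT3G15450 they were 17.2 (L), 430.5 (M) and 200.2 (H) against 113.4 (L), 5.40 (M) and 8.50 (H). Like PORB, both were lower in CLL than in CVL and higher in CLM and CLH than in CVM and CVH.

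GSA1 and LIL3:1 differed little between L and M. M minus L was 0.16 in CL and -0.0043 in CV for GSA1, and 0.10 in CL and -0.0032 in CV for LIL3:1. Each of these 4 differences was smaller than the residual SD of 0.32. H minus L was -0.26 in CL and -0.55 in CV for GSA1. For LIL3:1 it was -0.53 in CL and -0.23 in CV. None of the 8 differences of GSA1 and LIL3:1 reached 1 in size, and all 4 of PORB did. A difference of at least 1 from L in either direction was found for 8.47% of probe sets at M and 11.4% at H within CL, and for 7.99% at M and 13.5% at H within CV.

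**Figure D2:**
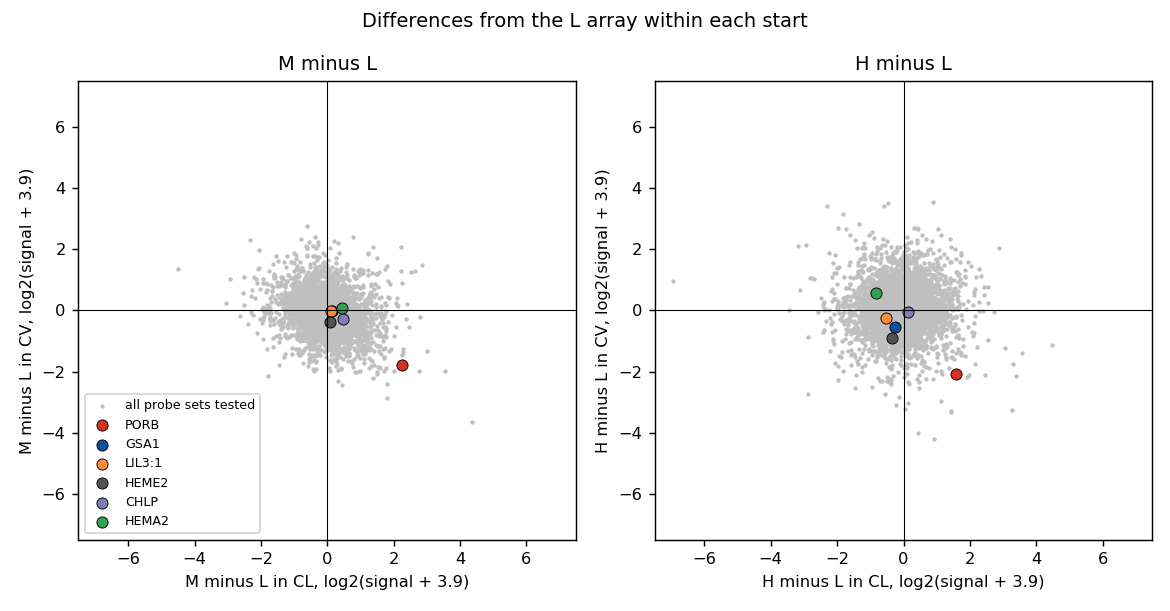
Difference of M from L (left) and of H from L (right), on the scale log2(signal + 3.9), within CL (horizontal axis) and within CV (vertical axis); grey points are all 5773 probe sets kept and coloured points the 6 tetrapyrrole genes. PORB lies far to the lower right in both panels (2.25 and -1.77 at M, 1.58 and -2.09 at H), while GSA1 and LIL3:1 lie near the middle.

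H minus M was negative for all 3 genes in both starts, but within CV it was smaller in size than the residual SD of 0.32 for PORB and LIL3:1, so that H and M were not put in order there. H minus M was -0.66 in CL and -0.32 in CV for PORB. For GSA1 it was -0.41 in CL and -0.55 in CV, and for LIL3:1 -0.63 in CL and -0.23 in CV, the last value being -0.10 after quantile normalization. With each array centred on its median, H minus M in CV was -0.52 for PORB and -0.43 for LIL3:1. Of all probe sets kept, 20.4% were lower at H than at M in both starts, and the median over all of them was -0.05 in CL and 0.16 in CV. RNA quality was gauged by the GAPDH control, whose 3-prime signal over its 5-prime signal was 6.22 (CLH) and 5.50 (CVH) at H and between 2.81 and 3.76 on the other 4 arrays, and its part in these differences was not tested.

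Between the starts, PORB differed in both directions. CV minus CL was 2.25 (L), -1.77 (M) and -1.42 (H). At M 11.5% of probe sets, and at H 6.86%, were lower in CV by at least 1. Over all probe sets the median of CV minus CL was -0.15 (L), -0.18 (M) and 0.05 (H). Relative to that median the differences of GSA1 and LIL3:1 at L and M were larger than the values given above. After quantile normalization those of GSA1 were larger as well, at 1.36 (L) and 1.18 (M). Those of LIL3:1 were then smaller, at 0.26 (L) and 0.075 (M). At H both became smaller. GSA1 went from 0.93 to 0.89 after quantile normalization and to 0.86 with each array centred on its median. LIL3:1 went from 0.68 to 0.67 and 0.61. Averaged over the endings in the additive model, the fitted difference between CV and CL was 1.07 (SE 0.24, 3 arrays against 3) for GSA1, 0.45 (SE 0.22) for LIL3:1 and -0.31 (SE 0.67) for PORB. The PORB value is the mean of differences of opposite sign. Each SE, here and for the other genes below, was moderated by limma towards the spread of probe sets of similar signal. The residual SD of the gene itself was 0.11 for GSA1, 0.15 for LIL3:1 and 1.57 for PORB.

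**Figure D3:**
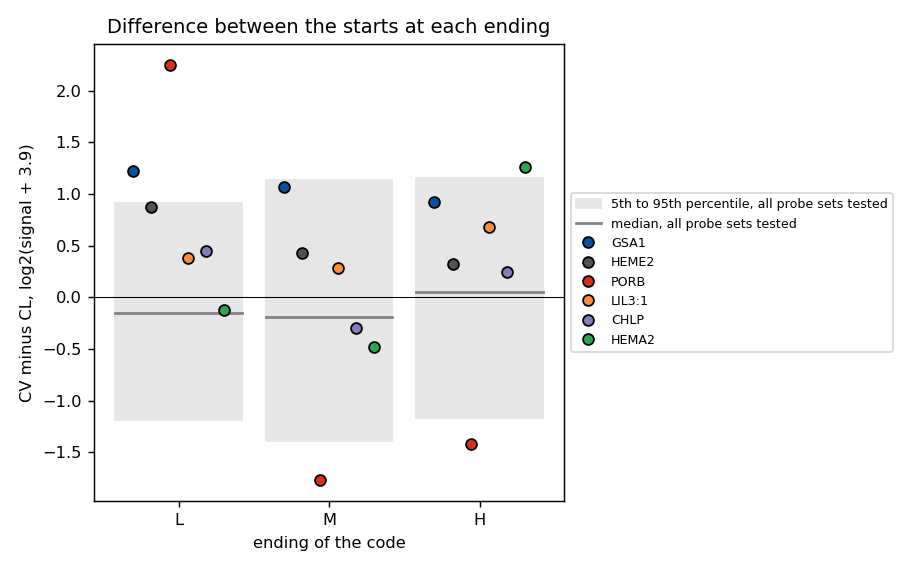
Difference of CV from CL at each ending (vertical axis, log2(signal + 3.9)) for the 6 tetrapyrrole genes; grey boxes span the 5th to the 95th percentile of all probe sets kept and grey lines mark their median. GSA1 lies between 0.93 and 1.23 at every ending, and PORB at 2.25 at L, -1.77 at M and -1.42 at H, outside the box each time.

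The average background that the scanner reported was 56.06 in CLL, 64.02 in CLM, 64.52 in CLH, 73.52 in CVL, 56.56 in CVM and 68.77 in CVH. The 2 arrays with the lowest background, CLL and CVM, were among the 3 with low PORB signals, and CVL had both the highest background and the highest PORB signal. CVH had the second highest background and a low PORB signal. The part of the background in the PORB differences was not tested. The bright genes RCA and LHCB4.1 differed over the arrays by factors of 1.40 and 1.37. Both had their lowest signal in CVL and their highest in CLM, the 2 arrays where PORB was highest.

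The sum of squares over the 6 arrays can be split into a share of the start, a share of the ending and a remainder, which holds the error together with any way in which the endings act differently in CL and CV. For GSA1 the start took 85.7%, the ending 13.2% and the remainder 1.10%. For LIL3:1 these were 53.6%, 38.9% and 7.51%. For PORB the start took 2.71%, the ending 4.51% and the remainder 92.8%. The median over all probe sets was 22.1% for the start, 28.5% for the ending and 34.0% for the remainder. GSA1 had a larger share of the start than 97.8% of probe sets, and PORB a larger remainder than 98.5%. GSA1 was selected for its difference between the starts and PORB for its opposite differences from L. High ranks in these shares, and few probe sets with differences as large, follow from that choice.

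**Figure D4:**
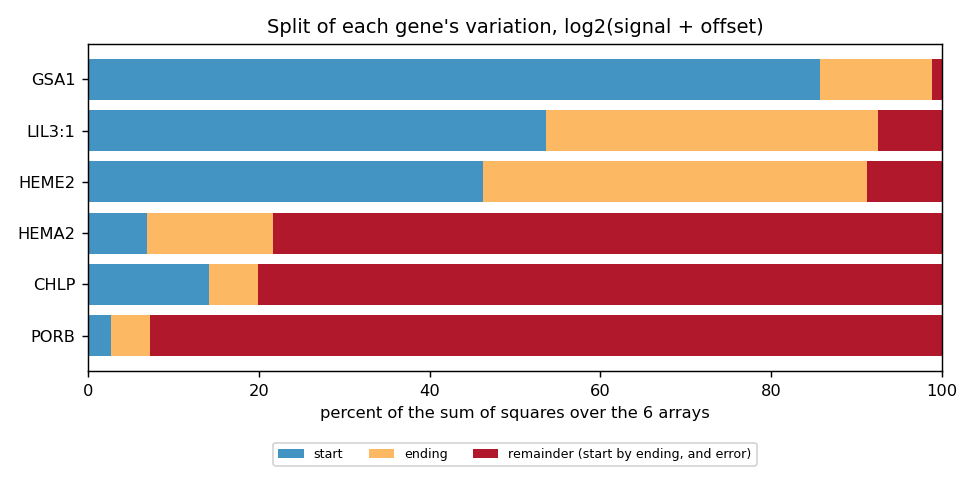
Share of the sum of squares of log2(signal + 3.9) over the 6 arrays (horizontal axis, percent) taken by the start, the ending and the remainder for each of 6 tetrapyrrole genes. The start takes 85.7% for GSA1 and 53.6% for LIL3:1, and the remainder 92.8% for PORB.

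The rest of the pathway was thinly covered. Of 64 genes listed for tetrapyrrole synthesis, its branches, chlorophyll breakdown and their regulators, 7 were on the array under a name, and 4 of these were not among the genes already described. HEMA3, a glutamyl-tRNA reductase gene, had a mean signal of 4.67 and was left out as dim. The remaining 3, HEME2, HEMA2 and CHLP, were tested, and 0 of 3 passed the test for CV against CL (limma, adjusted p under 0.05), which 0.0346% of all probe sets passed. In the other 3 contrasts, between the endings, 0 of 3 passed as well, as did 0% of all probe sets. At an unadjusted p under 0.05, limma found 748 probe sets (13.0%) for CV against CL, 74 (1.28%) for M over L, 349 (6.05%) for H over L and 256 (4.43%) for H over M, and none of these 3 genes was among them.

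HEME2 (AT2G40490) encodes uroporphyrinogen decarboxylase, which acts between 5-aminolevulinate and the magnesium branch. Its signal was 178.2 (L), 187.2 (M) and 138.4 (H) for CL, and 329.2 (L), 253.7 (M) and 174.6 (H) for CV. It was higher in CV at 3 of 3 endings, by 0.87 at L, 0.43 at M and 0.33 at H, but CVH lay below CLL and CLM, so that the starts overlapped. The fitted difference was 0.54 (SE 0.25, limma unadjusted p = 0.057, adjusted p = 0.403). Its start, ending and remainder took 46.3%, 45.0% and 8.74% of the sum of squares, and its H minus M was -0.43 in CL and -0.53 in CV.

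CHLP (AT1G74470) encodes geranylgeranyl reductase, the enzyme that LIL3:1 is known to bind. Its signal was 3058.8 (L), 4256.4 (M) and 3387.3 (H) for CL, and 4170.8 (L), 3460.4 (M) and 4027.7 (H) for CV. As for PORB, the lowest signal was in CLL and the highest were in CLM and CVL, but CLH was only 0.15 above CLL. CVH was only 0.05 below CVL, whereas for PORB it was among the low arrays. The range was 0.48, against 2.25 for PORB. Differences from L of any size that were positive in CL and negative in CV, as in these genes, were found for 29.5% of probe sets at M and 17.1% at H. The fitted difference between CV and CL was 0.13 (SE 0.20, limma adjusted p = 0.818).

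HEMA2 (AT1G09940) encodes a glutamyl-tRNA reductase, the enzyme just before GSA1 in the pathway, in an isoform known mainly from tissues that are not green. Its signal was low, at 17.4 (L), 24.9 (M) and 8.10 (H) for CL and 15.7 (L), 16.8 (M) and 24.9 (H) for CV. The fitted difference was 0.22 (SE 0.41, limma adjusted p = 0.853), and the starts overlapped. HEMA2 and GSA1, neighbours in the pathway, did not share a pattern over the arrays (r = 0.29).

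Over the 6 arrays the log2 signals of GSA1, LIL3:1 and HEME2 went together, with a Pearson r of 0.88 between GSA1 and LIL3:1, 0.89 between GSA1 and HEME2 and 0.86 between LIL3:1 and HEME2. Of the other probe sets kept, 44 had r of at least 0.95 with GSA1 and 32 with LIL3:1. LIL3:1 had r = 0.63 with HEMA2 and 0.42 with CHLP, the enzyme it is known to bind, and GSA1 had 0.39 with CHLP. PORB had r = 0.01 with GSA1, -0.05 with LIL3:1, 0.27 with HEME2, 0.62 with CHLP and -0.17 with HEMA2. All these values come from the same 6 RNA samples and share any difference between the arrays, and they are descriptions of 6 points.

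Among 1155 other named genes with a range of at least 1, the 5 with the profile most like PORB were AT2G42190 (r = 0.98), AT1G78830 (r = 0.95), AT2G47330 (r = 0.93), AT1G11850 (r = 0.92) and AT3G16370 (r = 0.90). AT2G42190 ran from 46.6 (L) to 106.5 (M) and 84.8 (H) for CL and from 112.6 (L) to 59.5 (M) and 61.2 (H) for CV, the same split of arrays as PORB over a smaller range. The most opposite were AT3G48230 (r = -0.98), AT4G00040 (r = -0.98) and AT1G61890 (r = -0.97). AT1G61890 ran from 123.9 (L) to 61.0 (M) and 65.9 (H) for CL and from 57.9 (L) to 129.5 (M) and 132.8 (H) for CV.

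For GSA1 the most like were PGY2, a gene of the large cytosolic ribosomal subunit (r = 0.98), AT2G37660 (r = 0.98), AT4G17390 (r = 0.97), AT2G24020 (r = 0.97) and AT4G27380 (r = 0.96). The PGY2 signal was 822.1 (L), 903.0 (M) and 778.3 (H) for CL and 1712.3 (L), 1476.8 (M) and 1085.3 (H) for CV. The most opposite were the linker histone gene HIS1-3 (r = -0.98), AT4G14020 (r = -0.97) and the zinc finger gene DI19 (r = -0.97). That of HIS1-3 was 44.5 (L), 50.7 (M) and 72.9 (H) for CL and 16.0 (L), 14.7 (M) and 32.3 (H) for CV.

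For LIL3:1 the most like of 1156 genes were AT5G35100 (r = 0.98), AT4G34090 (r = 0.97), AT4G33110 (r = 0.96), AT4G36130 (r = 0.96) and AT4G14260 (r = 0.96). AT5G35100 had 313.8 (L), 378.2 (M) and 155.1 (H) for CL and 594.6 (L), 578.4 (M) and 523.6 (H) for CV, with CLH lowest as for LIL3:1. The most opposite were AT2G24360 (r = -0.98), AT5G59450 (r = -0.98) and GT-1 (r = -0.97), which encodes a DNA-binding protein of light-regulated promoters. GT-1 had 70.1 (L), 74.7 (M) and 117.6 (H) for CL and 52.8 (L), 61.1 (M) and 67.4 (H) for CV, with CLH highest. CLH was also the array with the highest 3-prime over 5-prime GAPDH signal, 6.22, and the part of RNA quality in these profiles was not tested. No gene was in the sets of more than 1 of PORB, GSA1 and LIL3:1.

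**Figure D5:**
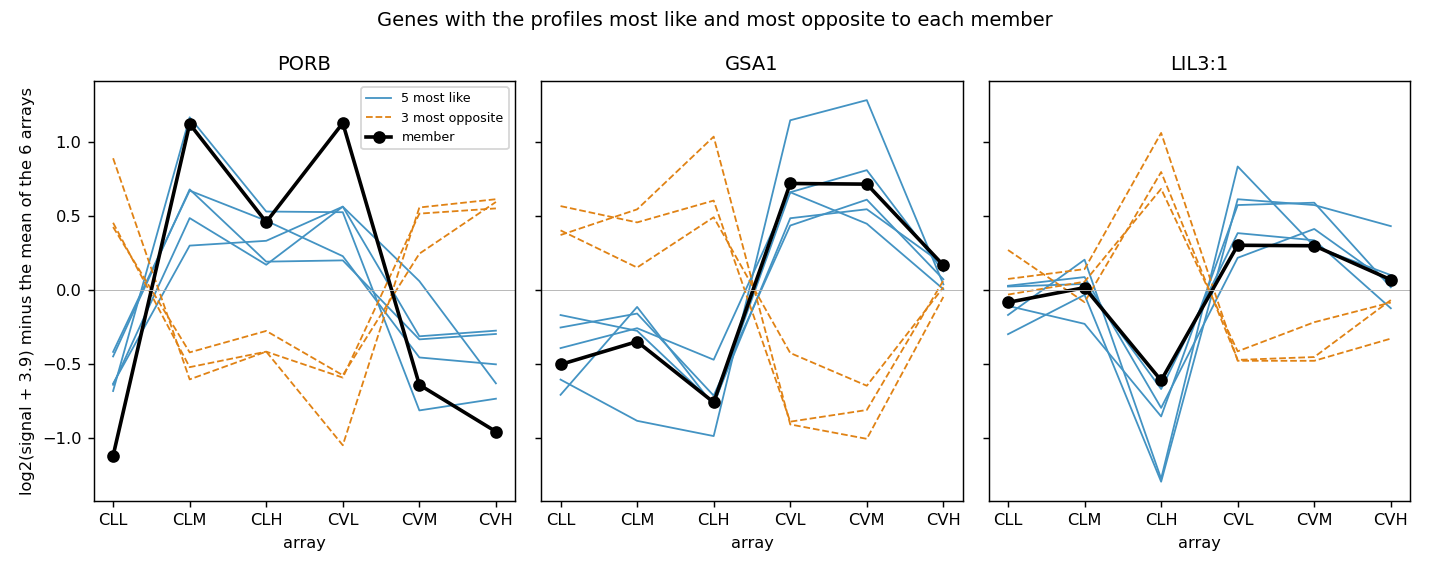
Log2(signal + 3.9) minus the mean of the 6 arrays (vertical axis) on each array (horizontal axis) for PORB, GSA1 and LIL3:1 (black), the 5 genes most like each (blue) and the 3 most opposite (dashed orange), chosen for this likeness. The genes around PORB are low in CLL and CVH and, apart from AT3G16370, in CVM, those around GSA1 are higher on the CV arrays, and those around LIL3:1 are lowest in CLH.

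The probe sets of PORB and LIL3:1 carry the suffix that Affymetrix gave to sets whose probes can match more than 1 transcript, whereas that of GSA1 does not. The annotation pairs each of them with a single gene. PORA, PORC, GSA2 and LIL3:2, the related genes, were not on the array under a name, so whether their transcripts contributed to the signals was not tested.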

How the data were processed

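Per the labels, total RNA was labelled with biotin and hybridised to arrays of 8297 probe sets. The deposited values are linear intensity values, 1 column per array; every array had the same mean, 100.2, once 2% of values were trimmed at each end, so the authors had scaled them to a common level. The labels name no software for this step. Values were taken as log2(signal + 3.9), the offset being the 20th percentile of all values, which understates differences at low signal. Left out were the 50 control probe sets and the 30% of the others with the lowest mean (2474 probe sets, at or below a signal of 8.86). The platform annotation named the probe sets, with symbols brought up to date by gene identifier from the TAIR10.1 table; 3794 probe sets had 1 gene, 70 several and 4383 none.

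An additive model of start and ending was fitted over all 5773 probe sets with limma (version 3.58.1, R 4.3.3). It used eBayes with an intensity trend, 2 residual degrees of freedom and Benjamini-Hochberg adjustment. The fit was also run on simulated data with normal noise and known changes between CV and CL. Those data held no different action of the endings in CL and CV, so that run cannot judge the fit where there is one. Within-start differences compare 2 single arrays and have no test. The genes named were the members, every measured gene of the tetrapyrrole lists, and the 5 named genes with the highest and the 3 with the lowest Pearson correlation with each member, 1 probe set per gene with a log2 range of at least 1. Promoter motifs had been planned and were not searched here. The members, the lists and the rules were chosen with earlier results of these data known. Alternatives tried were other offsets, quantile normalization, centring on the array median, no filter, no intensity trend, a model without start or without ending, Spearman correlation, and each array left out.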

Additional observations from a re-analysis of the deposited data

Results flagged for a closer look

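The differences of PORB from L were positive on the M and H arrays of CL (2.25 at M, 1.58 at H). On the M and H arrays of CV they were negative (-1.77 at M, -2.09 at H). Those of CHLP had the same signs with smaller values, 0.48 and 0.15 in CL against -0.27 and -0.050 in CV. Of these CHLP values only 0.48 was larger in size than the residual SD of 0.32. With 1 array per code no residual degree of freedom is left to test this difference between the starts, so it was not tested, and the L array of each start enters both of its values. Differences of any size that were positive in CL and negative in CV were seen for 29.5% of probe sets at M and for 17.1% at H.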

How the results depend on the processing

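No paired analysis was possible because each code has 1 array and so no replicate numbers to pair; the ending term already compares the starts within each ending. Under 2 other offsets, quantile normalization and centring on the array median, each of the 27 differences of PORB, GSA1 and LIL3:1 moved by at most 0.24 in 108 recomputed values, less than the median residual SD of 0.32, though the difference of LIL3:1 at M between the starts went from 0.28 to 0.075 under quantile normalization. M minus L in CV turned from slightly negative to 0.03 and 0.07 for GSA1 (quantile normalization, centring) and to 0.07 for LIL3:1 (centring). The differences of H from M, and the fits of HEME2, CHLP and HEMA2 under the alternatives, were added after seeing the data. Of the 5 genes most like each member, Spearman correlation shared 1 for PORB, 1 for GSA1 and 1 for LIL3:1, and quantile normalization shared 5, 3 and 1. Probe sets called for CV against CL numbered 2, and 0 without the ending term or the intensity trend. With either array of an ending left out, the fitted differences between CV and CL were the same. Such fits are therefore not separate results for that contrast. With 1 array left out and 1 residual degree of freedom, counts ranged from 1 (without CLM or CVM) to 257 (without CVL; 57 without CVH, 251 without CLL, 55 without CLH) for CV against CL, from 0 to 38 for M against L (16 without CLL), from 0 to 64 for H against L (64 without CLL, 2 without CVH, 54 without CVL, 3 without CLH) and from 0 to 10 for H against M (3 without CLH, 9 without CLL, 10 without CVL); the cause was not tested. None of HEME2, CHLP and HEMA2 was called in any of the 13 alternative fits. The CV against CL value of HEME2 ran from 0.38 to 0.65 (limma adjusted p from 0.363 to 0.848); with 1 array left out, that of CHLP ran from -0.024 (without CLL or CVL) to 0.35 and that of HEMA2 from -0.30 (without CLH or CVH) to 0.57.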
